A study of Mus musculus with 6 samples.

Results

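The genes described here are 8 transcripts of Schwann cells and of the myelin these cells make: Pmp22, Mbp, Prx, Mag, Cdh19, Dhh, Egr2 and Sox10. They were picked by symbol, all 8 were present among the 19458 genes of the tables, and all 8 had enough reads to be tested. RNA-seq was done on gastrocnemius, the large calf muscle, of 9-week-old C57BL/6 mice, in 3 libraries of tmem182-/- mice (knockout) and 3 of wild type mice. Tmem182 encodes a membrane protein of striated muscle. Whether the deletion is restricted to a cell type was not given in the sources used here. The labels also leave out whether the libraries of a genotype are from different mice, so the p-values speak only of the spread between these 6 libraries, which can be partly technical. Source labels of knockout libraries 2 and 3 carry other Tmem numbers, and the extraction protocol speaks of cultured muscle cells, while genotype and tissue labels give tmem182-/- skeletal muscle throughout. Tmem182 itself was low in all 3 knockout libraries, at 2.17 to 6.23 FPKM, against 120.97 to 147.48 FPKM in the wild-type libraries (FPKM, read fragments scaled to transcript length and to library size). Depth was 16212341 to 17986755 expected counts in the knockout libraries and 17617775 to 18672630 in the wild-type libraries.

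Schwann cells ensheath the axons that run through muscle in nerve branches, and a myelinating Schwann cell wraps a segment of a large axon in compact myelin. Sox10 is the transcription factor that keeps the lineage's identity, and it acts with Egr2 (also called Krox20), the factor that turns on the myelin programme. Pmp22, Mbp, Prx and Mag encode parts of the sheath, Cdh19 is a cadherin of the lineage, and Dhh is a hedgehog ligand that Schwann cells send to the perineurial cells around the nerve. Muscle fibres do not make myelin, so in a piece of muscle these transcripts come chiefly from the nerve it contains, although Pmp22, Egr2 and the Mbp locus are active in other cells too. In a bulk sample, fewer Schwann cells and less RNA per Schwann cell cannot be told apart.

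Positions are those of GRCm38 (GENCODE M21). Pmp22 is at chr11:63128982-63159547 on the plus strand, Prx at chr7:27499324-27520214 on the plus strand and Mag at chr7:30899176-30914873 on the minus strand. Cdh19 is at chr1:110888326-110977584 on the minus strand, Dhh at chr15:98891152-98898540 on the minus strand, Egr2 at chr10:67535475-67542188 on the plus strand and Sox10 at chr15:79154908-79165240 on the minus strand. The strand setting of the counting was not given in the sources used here. An antisense gene overlaps Prx and another overlaps Dhh. Dhh also overlaps the protein-coding gene Rhebl1 on its own strand, Cdh19 overlaps 2 unconfirmed gene models on its own strand, and Mbp overlaps a pseudogene on the opposite strand. The reads of these 4 genes may therefore be less certain than those of Pmp22, Mag, Egr2 and Sox10, which no other annotated gene overlaps. These overlaps are of whole gene spans, introns included. Overlap of exons was not examined, and the annotation used for the counting was not given.

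The stretch before the start of 4 of these genes is shown as a description, each the most upstream annotated start of its gene. RefSeq (GRCm38.p6) windows from 250 bases before to 50 bases after a start were found for 5 of the 8 members, Pmp22, Prx, Mag, Dhh and Egr2. Sox10, Cdh19 and Mbp are named only. The windows are chr11:63128732-63129031 (plus strand) for Pmp22, chr7:30914873-30915172 (minus strand) for Mag, chr15:98898491-98898790 (minus strand) for Dhh and chr10:67535249-67535548 (plus strand) for Egr2. All are written 5′ to 3′ along the gene, and capitals mark matches on either strand to ACAAAG or ACAATG, core letters that SOX factors recognise, or to GTGGGCG or GGGGGCG, letters that EGR factors recognise. GGGGGCG shares its last bases with the GC box of SP and KLF factors.
Pmp22: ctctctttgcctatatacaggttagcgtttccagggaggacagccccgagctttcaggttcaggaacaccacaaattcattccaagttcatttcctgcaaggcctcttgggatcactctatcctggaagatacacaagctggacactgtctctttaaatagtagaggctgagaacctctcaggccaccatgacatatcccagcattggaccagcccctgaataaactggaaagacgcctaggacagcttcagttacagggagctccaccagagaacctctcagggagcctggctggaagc
Mag: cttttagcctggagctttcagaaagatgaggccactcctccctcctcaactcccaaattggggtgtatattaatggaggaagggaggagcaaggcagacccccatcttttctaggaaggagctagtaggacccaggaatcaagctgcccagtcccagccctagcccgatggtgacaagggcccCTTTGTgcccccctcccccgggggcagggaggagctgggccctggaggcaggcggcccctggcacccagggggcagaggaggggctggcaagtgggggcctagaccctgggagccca
Dhh: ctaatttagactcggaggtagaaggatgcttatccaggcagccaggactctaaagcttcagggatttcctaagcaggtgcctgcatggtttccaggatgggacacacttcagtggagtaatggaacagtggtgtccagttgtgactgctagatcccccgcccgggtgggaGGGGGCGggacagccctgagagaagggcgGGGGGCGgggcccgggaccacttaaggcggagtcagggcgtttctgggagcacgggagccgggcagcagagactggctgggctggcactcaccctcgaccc
Egr2: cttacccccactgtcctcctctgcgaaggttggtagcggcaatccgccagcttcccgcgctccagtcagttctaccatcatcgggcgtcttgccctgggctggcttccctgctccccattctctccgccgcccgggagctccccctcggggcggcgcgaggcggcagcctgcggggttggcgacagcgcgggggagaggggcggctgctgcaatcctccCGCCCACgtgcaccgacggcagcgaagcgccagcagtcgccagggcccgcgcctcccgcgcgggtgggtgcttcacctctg
The Mag window held 1 match to ACAAAG, on the reverse strand and beginning 67 bases before the start. The Dhh window held 2 matches to GGGGGCG, beginning 80 and 51 bases before the start, and the Egr2 window 1 match to GTGGGCG on the reverse strand, 31 bases before the start. The Pmp22 window shown and the Prx window, chr7:27499074-27499373, held none of the 4 motifs. Of 32851 RefSeq windows of 300 bases, 18.7% hold ACAAAG, 12.6% ACAATG, 7.97% GTGGGCG and 16.4% GGGGGCG. Over all 14 windows of the 5 genes the counts of windows with a match were 2, 0, 1 and 2, and both windows with ACAAAG are overlapping Mag windows that hold the same site. These are matches of letters, not measured binding.

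Pmp22 and Mbp were the most abundant members, followed by Prx. Pmp22, a tetraspan protein of compact myelin whose gene dosage matters for peripheral nerve in people, was at 80.14, 13.49 and 24.91 FPKM in knockout libraries 1, 2 and 3, against 49.74, 8.08 and 12.35 FPKM in wild-type libraries 1, 2 and 3. Library 1 was the highest in each genotype, library 2 the lowest, and the groups overlapped. The group means were 39.5 ± 35.6 FPKM (knockout) and 23.4 ± 22.9 FPKM (wild type), with the SD over n = 3 each. The log2 fold change, knockout over wild type, was 0.64 (SE 0.74), with a 95% interval of -1.075 to 2.35, from edgeR's quasi-likelihood fit to the counts of all genes.

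Mbp encodes myelin basic protein, which holds the cytoplasmic faces of the sheath together, and the same locus also gives rise to the Golli proteins of other cells (chr18:82475146-82585637, plus strand). Mbp measured 63.46, 9.62 and 15.83 FPKM in the knockout libraries, against 47.58, 3.44 and 5.46 FPKM in the wild-type libraries. The highest wild-type library was thus 13.8 times the lowest, and the highest knockout library 6.60 times the lowest, while the ratio of the group means, 29.6 ± 29.5 over 18.8 ± 24.9 FPKM (SD, n = 3 each), was 1.57. Its log2 fold change was 0.55 (SE 0.94, 95% interval -1.64 to 2.74).

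Prx encodes periaxin, a scaffold that ties the outer Schwann cell membrane to the basal lamina through Drp2. It had 8.19, 1.81 and 2.5 FPKM in the knockout libraries, against 5.99, 0.48 and 1.40 FPKM in the wild-type libraries. The log2 fold change of Prx was 0.58 (SE 0.80, 95% interval -1.29 to 2.45). Mag, the myelin-associated glycoprotein of the membrane that faces the axon, measured 1.17, 0.37 and 0.39 FPKM in the knockout libraries, against 0.88, 0.18 and 0.23 FPKM in the wild-type libraries. Those values rest on 46, 16 and 17 expected counts in the knockout and 38, 8 and 10 in wild type. The same pattern as in Pmp22 was present in both genes, with library 1 of each genotype above the other 4 libraries. The log2 fold change of Mag was 0.48 (SE 0.63, 95% interval -1.0 to 1.96).

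Of the lineage regulators, Sox10 had 2.79, 0.88 and 1.33 FPKM in the knockout libraries, against 2.46, 0.39 and 0.85 FPKM in the wild-type libraries. The Sox10 group means, 1.67 ± 0.999 FPKM (knockout) and 1.23 ± 1.09 FPKM (wild type; SD, n = 3 each), had the smallest ratio of the 8, 1.35, and its log2 fold change was 0.35 (SE 0.60, 95% interval -1.04 to 1.74). Egr2 measured 0.62, 0.12 and 0.24 FPKM in the knockout libraries, against 0.26, 0.10 and 0.28 FPKM in the wild-type libraries. Egr2 differs from the other members in its order: wild-type library 1 did not stand above wild-type library 3. Its counts were 39.7, 16.6 and 22.8 in the knockout and 20.1, 9.77 and 18.9 in wild type, and its log2 fold change was 0.68 (SE 0.40, 95% interval -0.24 to 1.6). Egr2 is also an immediate early gene of other cells, muscle included.

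Dhh, the signal from Schwann cells to the nerve sheath, had 0.83, 0.23 and 0.31 FPKM in the knockout libraries, against 0.38, 0.16 and 0.23 FPKM in the wild-type libraries. The highest value came from 51.0 expected counts and the lowest from 13. Its log2 change was 0.62 (SE 0.50, 95% interval -0.55 to 1.78). Cdh19, the Schwann lineage cadherin, measured 0.38, 0.18 and 0.05 FPKM in the knockout libraries, against 0.24, 0.02 and 0.01 FPKM in the wild-type libraries. Cdh19 rested on 21, 13 and 4 expected counts in the knockout and 18, 1 and 1 in wild type. Its log2 fold change, 0.91 (SE 0.96, 95% interval -1.32 to 3.13), is the largest of the 8 and has the widest interval.

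**Figure D1:**
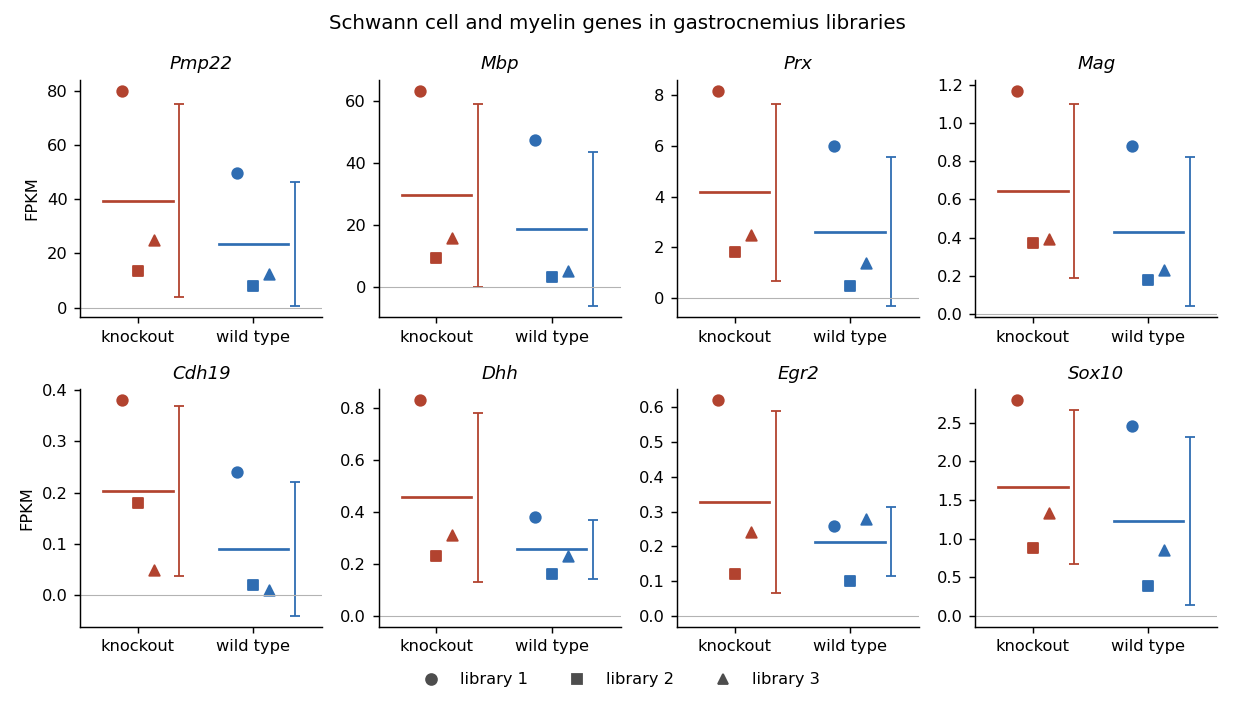
FPKM (vertical axes, linear, 1 scale per gene) of the 8 genes in the 3 knockout (red) and 3 wild-type (blue) libraries; symbols mark library numbers, horizontal lines the group means and vertical bars the SD. Library 1 (circles) is the highest in each genotype for every gene except Egr2 in wild type, and the groups overlap in all 8 panels.

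No member passed an adjusted p of 0.05: 0 of 8 by edgeR (adjusted p = 0.994 for each), where 0.00783% of the 12774 genes tested passed, a share that stands for Tmem182 alone. DESeq2 likewise called 0 of 8, with 6 genes called over all. At an unadjusted p under 0.05 edgeR gave 0 of 8, beside 3.55% of all genes tested. Groups did not overlap for 0 of 8 members in CPM (counts scaled to library size with edgeR's TMM factors), beside 9.18% of all genes tested in either direction and 4.67% with the knockout higher. The fitted log2 fold change was above 0 for 8 of 8 members, beside 51.1% of all genes, with a median of 0.60 over the members and 0.0046 over all genes. The members share their libraries and, in large part, a cell source, so 8 of 8 is not 8 separate observations.

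That median turned on single libraries. Without knockout library 1, 2 of 8 members had a fold change above 0 and their median was -0.095, with Pmp22 at -0.20 and Mbp at -0.41. Without wild-type library 1, all 8 were above 0, the median was 1.6, and 6 of 8 reached an unadjusted p under 0.05 beside 3% of all genes in that fit, although edgeR's adjusted p was 0.978 for each member. With both libraries numbered 1 left out, which was chosen after seeing the data, 7 members were tested, all 7 were above 0 and the median was 0.89. In that fit 3 of 7 had an unadjusted p under 0.05, beside 3.88% of all genes, and 0 passed edgeR's adjusted threshold. Over all genes the median stayed between -0.0067 and 0.0046 in these fits.

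**Figure D2:**
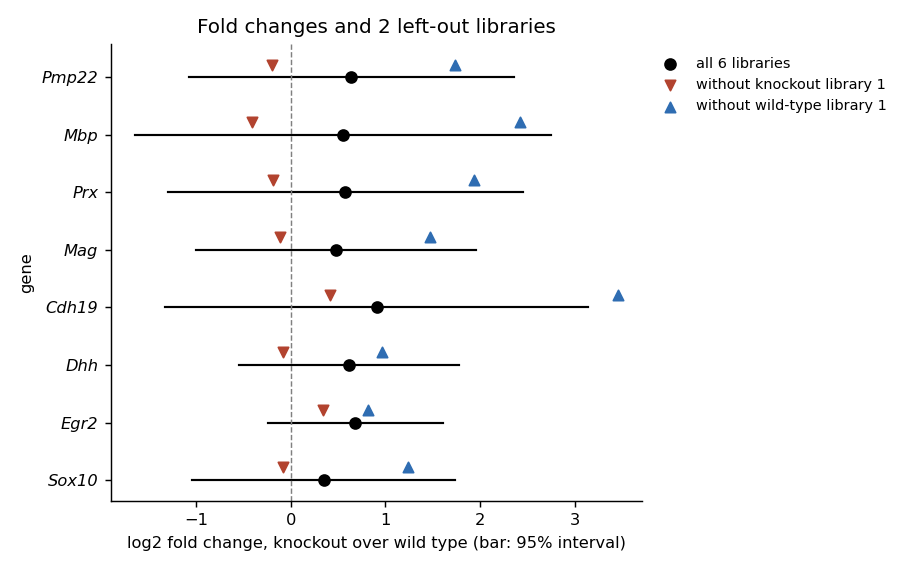
Log2 fold change (horizontal axis, knockout over wild type) of each of the 8 genes (vertical axis) with all 6 libraries (black, bar for the 95% interval), without knockout library 1 (red) and without wild-type library 1 (blue). Each bar, from all 6 libraries, spans 0, and leaving out knockout library 1 moves 6 of the 8 points below 0.

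Differences between libraries of a genotype were larger than the difference between the genotypes. For 8 of 8 members the highest library exceeded the lowest by more, within each genotype, than the knockout mean exceeded the wild-type mean. A range over 3 libraries tends to be wider than a ratio of means. The share over all genes was not counted, so the 8 of 8 is a description only. The FPKM of the 8 members together came to 157.6, 26.7 and 45.6 in knockout libraries 1, 2 and 3, against 107.5, 12.85 and 20.8 in wild-type libraries 1, 2 and 3. The sum therefore spanned 5.90-fold within the knockout and 8.37-fold within wild type, where the ratio of the group means was 1.63 (76.6 ± 70.75 over 47.1 ± 52.5, SD, n = 3 each). Pmp22 and Mbp made up 86.55% to 91.1% of the sum in the knockout libraries and 85.6% to 90.5% in the wild-type libraries. Without these 2 genes the sums were 13.98, 3.59 and 4.82 in the knockout, against 10.21, 1.33 and 3.0 in wild type, in the same order.

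The within-genotype SD of log2 CPM, averaged as a variance over both genotypes, was 0.201 for the median gene tested. Mbp had an SD of 1.57, exceeded by 0.423% of the tested genes, and Prx one of 1.40, exceeded by 0.618%. Pmp22 had an SD of 1.22, exceeded by 0.932%, and Sox10 one of 0.973, exceeded by 1.66%. Cdh19 had an SD of 1.28 and Mag one of 0.894, on the low counts given above. Dhh, with an SD of 0.656, and Egr2, with one of 0.499, varied least, and 5.08% and 10.65% of genes exceeded them. Log2 CPM were taken with about 2 counts added to each value. This narrows the spread of genes at low counts, Dhh and Egr2 included, so the members' order by SD depends partly on abundance.

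**Figure D3:**
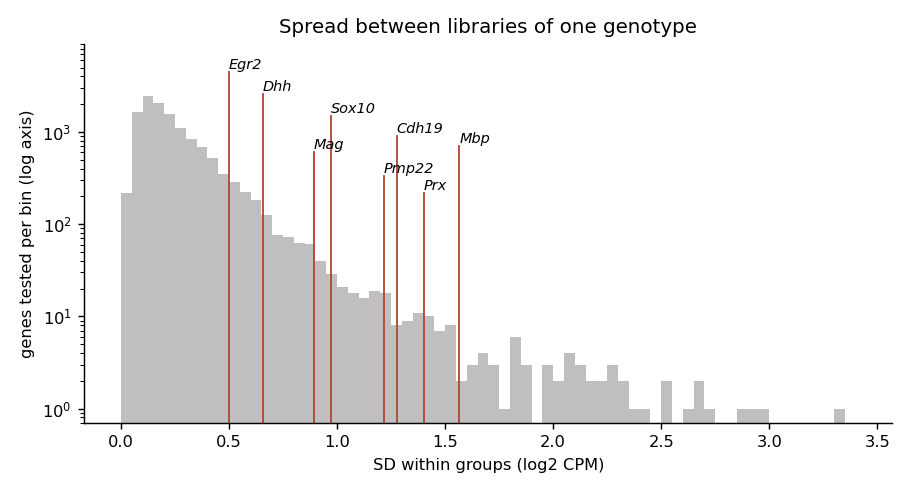
Number of tested genes (vertical axis, logarithmic) by SD of log2 CPM within groups (horizontal axis, bins of 0.05), with the 8 genes marked by red lines whose heights only separate the labels. The median gene is at 0.201 and the 8 genes lie between 0.499 and 1.57.

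The libraries ranked alike from gene to gene. In FPKM knockout library 1 was highest for 8 of 8 members, beside 62.2% of all genes tested, and both libraries numbered 1 stood above the other 4 for 7 of 8, beside 38.2%. The order was shared further: 6 of 8 members had the FPKM order knockout 1, wild type 1, knockout 3, knockout 2, wild type 3, wild type 2, if a tie of Dhh at 0.23 FPKM between knockout 2 and wild type 3 is set aside. In CPM 5 of 8 had this order, and Sox10 departed only in that wild-type library 1, at 6.43 CPM, lay beside knockout library 1, at 6.40 CPM. Knockout library 1 was highest in CPM for 7 of 8 members, beside 29.9% of all genes tested, and both libraries numbered 1 stood above the other 4 for 7 of 8, beside 17.4% of all genes. In knockout library 1 the top 10 genes held 22.0% of counts, against 28.2% to 31.9% in the other 5 libraries, and its TMM factor was 1.19, against 0.933 to 1.04 elsewhere; CPM carry this factor and FPKM do not. Wild-type library 2 was the lowest in FPKM for 7 of 8, the exception being Cdh19 at 1 expected count in each of wild-type libraries 2 and 3.

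In FPKM the members did not scale by a single factor. In wild-type library 2, Mbp was at 5.42% of its level in knockout library 1 and Prx at 5.86%, whereas Pmp22 was at 10.1%, Sox10 at 14.0%, Mag at 15.4%, Egr2 at 16.1% and Dhh at 19.3%. Cdh19 was at 5.26%, on 1 expected count in wild-type library 2. The shares of Mag, Egr2 and Dhh rest on 8, 9.77 and 13 expected counts there and are uncertain. Mbp per unit of Pmp22, in FPKM, was 0.792, 0.713 and 0.636 in the knockout libraries, against 0.957, 0.426 and 0.442 in the wild-type libraries. Sox10 per unit of Pmp22 was 0.0348, 0.0652 and 0.0534 in the knockout libraries, against 0.0495, 0.0483 and 0.0688 in the wild-type libraries. Mbp thus made up less relative to Pmp22 in the 2 wild-type libraries where both were lowest, while the ratio of Sox10 to Pmp22 had no such order. No test was made of these ratios.

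Genes outside the 8 that mark the same cells were listed as well: 23 in the tables, 20 of them tested. By edgeR 0 of 20 passed over all genes or reached an unadjusted p under 0.05, and DESeq2 called 0. The fold change was above 0 for 17 and below 0 for 3 (Cnp, Pou3f1 and Ngfr), with a median of 0.34, beside 51.1% above 0 and a median of 0.0046 over all genes. Without knockout library 1 only 4 of 20 were above 0, with a median of -0.18, and without wild-type library 1 the median was 1.28.

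In CPM, both libraries numbered 1 stood above the other 4 for 16 of these 20 genes, beside 17.4% of all genes tested. The genes given next are examples picked after their values were seen. Mal, a proteolipid of compact myelin, measured 4.83, 0.76 and 1.47 FPKM in the knockout libraries, against 3.19, 0.19 and 0.55 FPKM in the wild-type libraries. Drp2, the partner of periaxin, had 5.32, 1.14 and 1.40 FPKM in the knockout libraries, against 3.90, 0.74 and 0.86 FPKM in the wild-type libraries. Fa2h, an enzyme of myelin lipid synthesis, measured 2.49, 0.27 and 0.60 FPKM in the knockout libraries, against 1.11, 0.24 and 0.18 FPKM in the wild-type libraries. S100b, a calcium-binding protein of Schwann cells and other cells, had 2.5, 0.40 and 0.81 FPKM in the knockout libraries, against 1.75, 0.19 and 0.37 FPKM in the wild-type libraries. Each of these 4 genes was highest in knockout library 1 and next highest in wild-type library 1. Of the 20 tested genes 9 had a within-genotype SD above 1, among them Mal, Drp2, Fa2h and S100b, as had 4 of the 8 members and 1.57% of all genes.

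Other genes of the list varied less, myelin genes among them: Cnp, an enzyme of myelinating cells, had an SD of 0.510 and Gjc3, a connexin of myelinating glia, one of 0.542. Ngfr, the low-affinity neurotrophin receptor, had 0.27, 0.37 and 0.20 FPKM in the knockout libraries, against 0.45, 0.30 and 0.29 FPKM in the wild-type libraries (log2 fold change -0.35, SE 0.34). L1cam, an adhesion molecule of non-myelinating Schwann cells and axons, measured 1.30, 0.55 and 0.50 FPKM in the knockout libraries, against 0.69, 0.57 and 0.59 FPKM in the wild-type libraries. Scn7a, an atypical sodium channel, had 1.18, 0.43 and 0.65 FPKM in the knockout libraries, against 0.80, 0.57 and 0.42 FPKM in the wild-type libraries. Pou3f1, a factor of the promyelinating stage, measured 0.33, 0.28 and 0.31 FPKM in the knockout libraries, against 0.47, 0.27 and 0.44 FPKM in the wild-type libraries (log2 fold change -0.41, SE 0.31). Within-genotype SDs were 0.357 for Ngfr, 0.395 for L1cam, 0.476 for Scn7a, 0.286 for Pou3f1 and 0.540 for Ncam1, an adhesion molecule of non-myelinating Schwann cells and other cells. Gfap and Sox2, at 0.05 FPKM or less throughout, were too low to be tested, as was Gjb1, a gap junction protein of myelinating Schwann cells, at 0.04 to 0.74 FPKM. Of 8 repair Schwann cell genes 2 were tested, Jun and Runx2, and both had negative fold changes, -0.38 (SE 0.25) and -0.19 (SE 0.28), where 51.1% of all genes were above 0. Jun was at 15.35 to 38.77 FPKM, against 0.39 to 2.79 FPKM for Sox10. Whether the reads of Jun and Runx2 came from Schwann cells was not tested, so these values do not speak for repair Schwann cells.

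**Figure D4:**
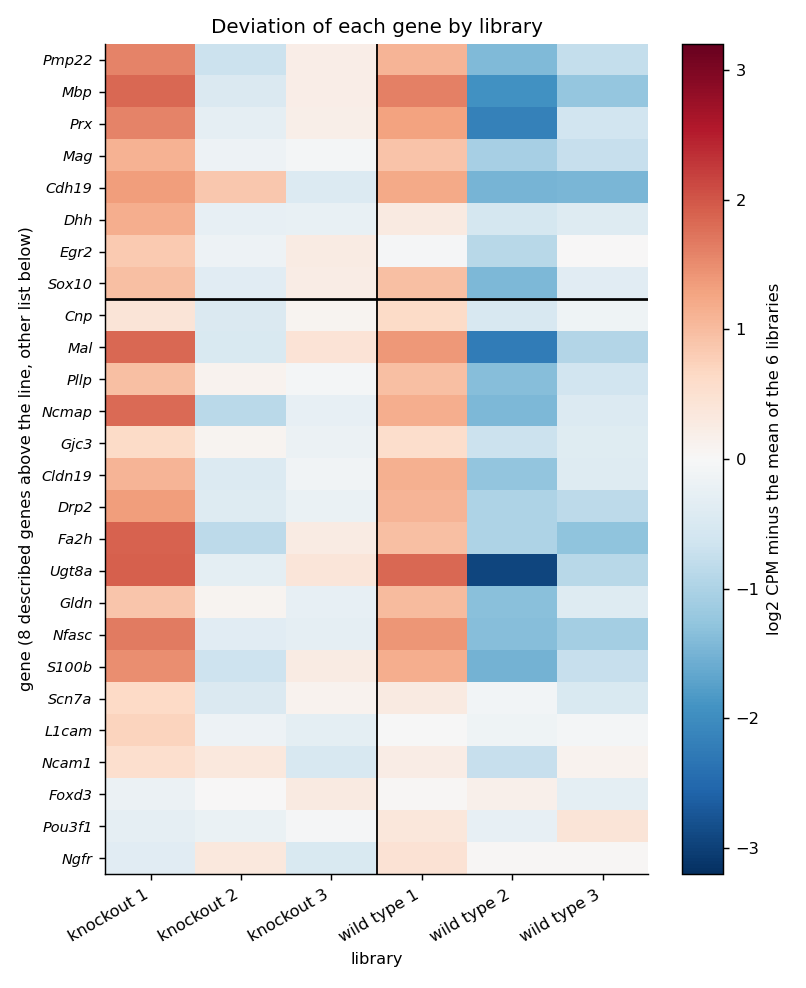
Log2 CPM of each gene minus its mean over the 6 libraries (colour), for the 8 genes (above the line) and 18 of the 20 tested genes of the other Schwann cell and myelin list (below), in knockout (left) and wild-type (right) libraries. Columns knockout 1 and wild type 1 are red and wild type 2 is blue over most of the myelin rows, while Foxd3, Pou3f1 and Ngfr stay pale.

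Signals around the members were then read from the same fit. Egr2 works with the co-repressors Nab1 and Nab2 and is preceded by neuregulin acting on Erbb2 and Erbb3. Of the 10 genes listed there 9 were tested and 0 passed, 1 had an unadjusted p under 0.05, beside 3.55% of all genes, and the median log2 fold change was 0.08. Groups did not overlap in CPM for 2 of 9 (Zeb2 higher, Erbb2 lower), beside 9.18% of all genes. Erbb2 was at 4.06, 4.13 and 3.26 CPM in the knockout libraries, against 4.30, 4.19 and 4.21 CPM in the wild-type libraries. Its groups overlapped in FPKM, where knockout library 1 was highest at 0.95, and its log2 fold change was -0.15 (SE 0.17). The gene with the unadjusted p under 0.05 was Zeb2, a repressor that Schwann cells need for myelination and that other cells also express, at 4.54, 3.44 and 3.21 FPKM in the knockout libraries, against 3.46, 2.64 and 2.63 FPKM in the wild-type libraries (log2 fold change 0.31, SE 0.12, edgeR adjusted p = 0.994). Erbb3, the neuregulin receptor subunit, had 0.85, 0.54 and 0.50 FPKM in the knockout libraries, against 0.92, 0.28 and 0.63 FPKM in the wild-type libraries, and so overlapped between genotypes. Nrg1 was at no more than 0.01 FPKM.

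Dhh binds the receptor Ptch1, which is itself a target of the pathway. Of 11 hedgehog genes 10 were tested and 0 passed, 5 had fold changes above 0 and 5 below, and 2 had an unadjusted p under 0.05, beside 3.55% of all genes. Groups did not overlap in CPM for 3 of the 10, not all of them named here, beside 9.18% of all genes tested. Ptch1 was higher in the knockout. Gli2 was lower, at 1.87, 1.80 and 1.90 CPM in the knockout libraries, against 2.23, 2.74 and 1.96 CPM in the wild-type libraries. In FPKM the groups of Gli2 overlapped, and its log2 fold change was -0.31 (SE 0.22). Ptch1 had 2.84, 2.14 and 2.03 FPKM in the knockout libraries, against 1.82, 1.5 and 1.80 FPKM in the wild-type libraries, without overlap (log2 fold change 0.31, SE 0.13, edgeR adjusted p = 0.994). Without knockout library 1 it was 0.23 on that scale. Gli1, a transcriptional target of the pathway, measured 1.10, 0.48 and 0.29 FPKM in the knockout libraries, against 0.65, 0.27 and 0.40 FPKM in the wild-type libraries, with overlapping groups.

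The tables hold 9 listed motor axon and neuronal genes, of which 4 were tested and 0 passed. Nefl, Nefm and Nefh, the neurofilament subunits, were at no more than 0.03 FPKM, and Slc18a3, the vesicular acetylcholine transporter, had 0 counts in all 6 libraries, which allows up to 3 counts, or 0.156 to 0.178 CPM, by counting error alone. Uchl1, a ubiquitin hydrolase of neurons that other cells can express, had 7.92, 1.87 and 2.08 FPKM in the knockout libraries, against 1.56, 1.99 and 1.47 FPKM in the wild-type libraries, so it was high in knockout library 1 and not in wild-type library 1. Stmn2, a microtubule regulator of growing axons, measured 1.82, 0.53 and 0.41 FPKM in the knockout libraries, against 0.72, 0.42 and 0.49 FPKM in the wild-type libraries, with knockout library 1 highest and wild-type library 1 next. Prph, the intermediate filament peripherin, was at 0.09 to 0.39 FPKM in the knockout libraries and 0.15 to 0.41 FPKM in the wild-type libraries, and Isl1, a motor neuron transcription factor, at 0.05 to 0.29 and 0.12 to 0.32 FPKM. Among myelin genes of central oligodendrocytes, Mog, Mobp and Myrf were at no more than 0.05 FPKM, while Pmp22 reached 80.14 FPKM. Aspa, which other tissues also express, was at 1.24 to 4.95 FPKM in the knockout libraries and 1.31 to 2.10 FPKM in the wild-type libraries. Of 5 melanocyte genes, another Sox10 lineage, none exceeded 0.36 FPKM.

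Markers of other cell types differed between the same libraries. Adipocyte genes summed to 264.3, 104.5 and 105.8 FPKM in the knockout libraries, against 154.85, 84.9 and 112.5 FPKM in the wild-type libraries. In CPM 5 of 5 tested were highest in knockout library 1, beside 29.9% of all genes tested, a share that also stands beside the counts below. Macrophage genes summed to 44.7, 14.4 and 19.7 FPKM in the knockout libraries, against 17.7, 12.2 and 11.35 FPKM in the wild-type libraries, with 6 of 6 highest in knockout library 1. Endothelial genes summed to 134.9, 78.9 and 55.8 FPKM in the knockout libraries, against 97.1, 56.8 and 77.2 FPKM in the wild-type libraries, with 5 of 6 highest in knockout library 1. Fibroblast genes summed to 352.7, 179.5 and 210.9 FPKM in the knockout libraries, against 330.5, 144.2 and 273.3 FPKM in the wild-type libraries, with 6 of 7 highest there. In these 4 lists 0 genes passed the adjusted threshold. By edgeR 2 of 6 macrophage genes (Adgre1 and Lyz2) and 2 of 5 tested adipocyte genes (Adipoq and Cfd) had an unadjusted p under 0.05. All 4 had higher means in the knockout, beside 2.07% of all genes tested with such a p and the knockout higher. Knockout library 2 was nonetheless the lowest of the 6 libraries for Adipoq and Cfd, at 0.78 and 6.82 FPKM.

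Both libraries numbered 1 stood above the other 4 in CPM for 5 of 6 endothelial and 4 of 5 perineurial and tight junction genes, but for 1 of 5 adipocyte, 2 of 6 macrophage and 2 of 7 fibroblast genes. Slow fibre genes summed to 2391, 1619 and 78.1 FPKM in the knockout libraries, against 716.1, 67.5 and 587.1 FPKM in the wild-type libraries, an order that differs from that of the members. The sums of adipocyte, endothelial and fibroblast genes, like those of the members, were highest in knockout library 1 and next highest in wild-type library 1, with another order of the remaining 4 libraries. For the adipocyte sum this order is that of Fabp4, at 199.94 FPKM in knockout library 1 and 143.57 FPKM in wild-type library 1. Adipoq and Cfd were next highest in knockout library 3, at 2.99 and 16.86 FPKM, against 1.17 and 8.23 FPKM in wild-type library 1. Within the fibroblast sum, Col1a1 was at 149.8 and 147.61 FPKM in wild-type libraries 1 and 3, against 38.79 to 105.28 FPKM in the other libraries. The place of wild-type library 3 in that sum thus leans on this gene. The sum of the fast fibre genes was lowest in knockout library 1, at 58412 FPKM, against 73546 to 83252 FPKM in the other 5 libraries, although 2 of the 8 listed genes, Myh1 and Myh2, were highest there. The part of these cell types, and of the makeup of each piece of muscle, in the members' values was not tested.

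**Figure D5:**
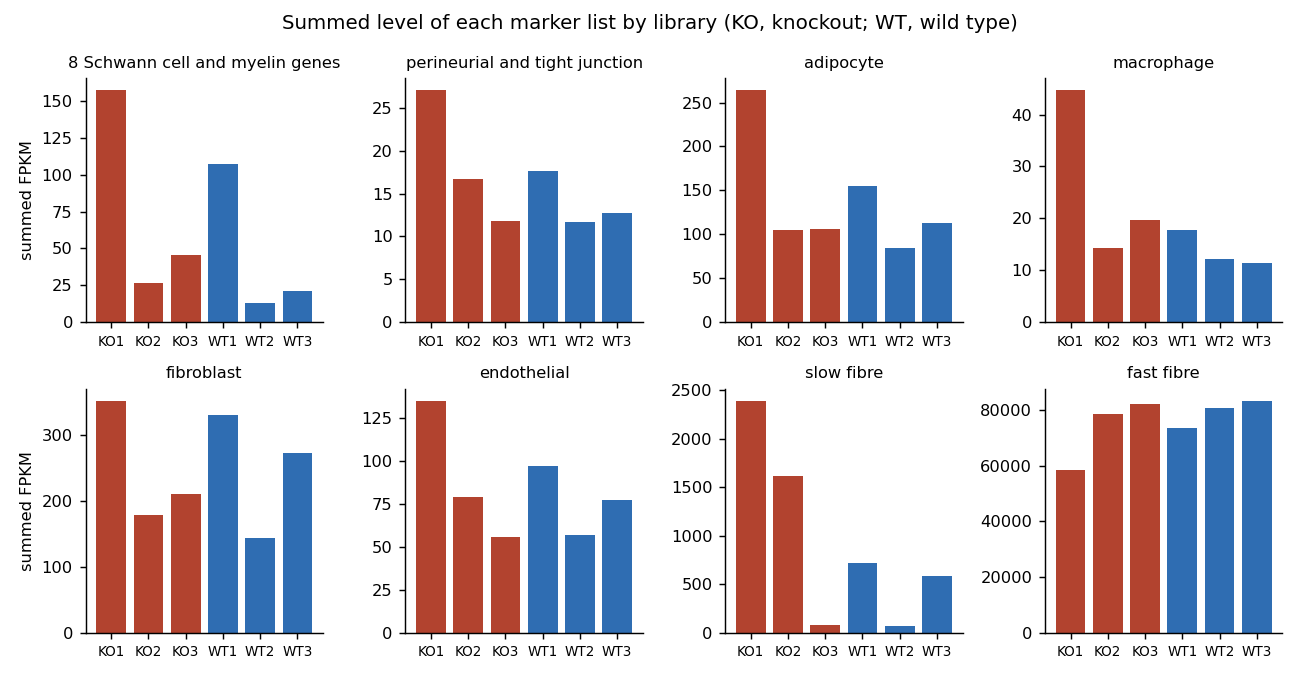
Summed FPKM (vertical axes, linear, from 0) of each marker list in every library, knockout in red to the left and wild type in blue to the right. The sums of the 8 genes are highest in KO1 and WT1 (157.6 and 107.5 FPKM), which also lead the perineurial, adipocyte, fibroblast and endothelial sums, while the slow and fast fibre sums follow other orders. Most of the adipocyte sum is Fabp4.

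The genes most like the members across libraries were named by a rule: the 10 non-member genes, of 10326 with a mean of at least 1 FPKM, whose log2 CPM had the highest Pearson r with the members' mean standardised level. The 8 reported here are Far1, Gpm6b, Mal, Plekha4, Sgce, Ndufaf3, Zfp428 and Igfbp6, with r from 0.997 to 0.982 over 6 libraries, which share depth, RNA makeup and scaling. Leaving out the 2 libraries farthest from the median, knockout library 1 and wild-type library 2, r ran from 0.963 to 0.999 over the remaining 4. Mal belongs to the list of other Schwann cell and myelin genes. That list has 23 genes, of which those under a mean of 1 FPKM were not ranked. Of the list, 8 were among the 100 most alike of the 10326 compared. Gpm6b, a membrane glycoprotein of neural cells, measured 2.11, 0.81 and 0.81 FPKM in the knockout libraries, against 1.40, 0.45 and 0.68 FPKM in the wild-type libraries. Far1, a reductase of ether lipid synthesis, had 2.07, 1.27 and 1.35 FPKM in the knockout libraries, against 1.70, 1.04 and 1.17 FPKM in the wild-type libraries, so it followed the same order over a narrower range.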

How the data were processed

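The authors deposited, per the file headers, 1 table per library that holds a read count and an expression value for each gene. The counts deposited by the authors are expected counts without normalization: 26.2% to 27.5% of them are not whole. The expression values deposited by the authors are FPKM to 2 decimals. The submitters' processing notes name HISAT2 2.0.4, Bowtie2 2.2.5, RSEM 1.2.12 and the build GRCm38, while their roles, the annotation, read filters and strand handling were not given in the sources used here. RSEM shares out reads of overlapping or alike transcripts by estimation.

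For the tests, expected counts were rounded, and filterByExpr of edgeR 4.0.16 (R 4.3.3) with a minimum count of 10 left 12774 genes. TMM scaling gave a factor of 1.19 for knockout library 1 and of 0.933 to 1.04 for the others. The genotypes were compared by edgeR's two-sided quasi-likelihood test without covariates. P-values were adjusted over all genes by Benjamini-Hochberg at a threshold of 0.05. The fit was also run on simulated counts, drawn for each gene independently. That run held no shifts shared by many genes of a library, so it does not speak for such shifts here. A standard error is the fold change over the square root of F. Every pair of libraries differed beyond counting noise (lowest chi-square per degree of freedom 12.9). FPKM and fold changes are on different scales: FPKM are printed as deposited, and fold changes come from TMM-scaled counts.

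The fit was repeated with the replicate number as a block, without each library, without a filter or with a mean of at least 1 FPKM, with DESeq2 size factors, with library totals, by the DESeq2 Wald test (DESeq2 1.42.0), by limma 3.58.1 on log2(FPKM + 1) and log2(FPKM + 0.1), and by limma-voom with quality weights. Leaving out both libraries numbered 1 was added after seeing the data. The 8 genes and the lists were chosen with earlier results of these data known. Beyond the 8 and Tmem182, the rule allowed any gene of the other Schwann cell, Egr2, hedgehog and axon lists, up to 3 most abundant genes of each other list, and the 10 most alike genes. Adgre1, Lyz2, Adipoq, Cfd, Fabp4, Col1a1, Jun, Runx2, Myh1, Myh2 and the oligodendrocyte genes were named after their values were seen. Some genes that the rule names are left out here.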

Additional observations from a re-analysis of the deposited data

How the results depend on the processing

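Of 123 values for single members under the alternative fits, 116 kept their direction, 7 turned over, and none passed the threshold (adjusted p 0.609 to 1.0). Leaving out each library in turn, log2 fold changes ran from -0.20 to 1.73 for Pmp22, -0.41 to 2.42 for Mbp, -0.18 to 1.93 for Prx, -0.11 to 1.47 for Mag, -0.081 to 0.96 for Dhh and -0.081 to 1.24 for Sox10. In each of these 6 the lowest value came without knockout library 1 and the highest without wild-type library 1, and Sox10 was also below 0 without wild-type library 2 (-0.07). Cdh19 ran from 0.40 (without wild-type library 2) to 3.455 (without wild-type library 1), and Egr2 from 0.34 (without knockout library 1) to 0.90 (without knockout library 2). The members' median ran from -0.095 to 1.6, the log2 difference of their summed FPKM from 0.19 to 1.82 (0.91 with all libraries), and the genes past the threshold from 0 to 1. That count was 0 without knockout library 2 or wild-type library 3, where Tmem182 had edgeR adjusted p-values of 0.0716 and 0.0529. The DESeq2 Wald test called 6 genes and limma on log2(FPKM + 0.1) called 0, none of them a member. Same-numbered libraries of the genotypes deviated together with r of 0.524, 0.179 and -0.122, so the numbers were not taken to pair them. With a replicate block 0 members and 1 gene passed, 3 of 8 members had an unadjusted p under 0.05, beside 5.82% of all genes, and the median was 0.71; knockout library 3 correlated best with wild-type library 2, at 0.427, rather than with its own number. The cause of these shifts was not tested. With a mean of at least 1 FPKM 4 members remained. Depth limits Mag, Cdh19, Dhh and Egr2, at 1 to 51.0 expected counts per library.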
